A study of Mus musculus with 37 samples.

Results

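The proteasome genes of mouse dendritic cells were examined through the open reading frames (ORFs) that ribosome footprints marked as translated. An ORF is a run of codons read in 1 frame up to a stop. Members were chosen by gene name alone: all ORFs whose name begins with Psma to Psmg and a number. This took in 65 of the 22367 listed ORFs, in 46 of 10327 families. A family is the set of ORFs that share a gene name, a chromosome and a strand. No measured value entered this rule, though earlier results of these data were known when it was chosen. Of the 46 families, 45 are proteasome genes. Psmc3ip, a partner of meiotic recombinases, matches by name only and is not part of the proteasome.

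The proteasome degrades proteins that carry ubiquitin chains. Its 20S core is a barrel of alpha and beta rings, with the peptide-cutting sites on beta subunits inside. The 19S cap recognises ubiquitin, unfolds the substrate with a ring of ATPases and feeds it into the core. In cells exposed to interferon, and constitutively in many antigen-presenting cells, 3 catalytic beta subunits are replaced by immunosubunits, which changes the peptides made for presentation on MHC class I. Dedicated chaperones assemble the rings.

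The footprints, RNA fragments of 28 to 34 bases shielded by ribosomes, came from bone marrow-derived dendritic cells of C57BL/6J mice aged 6 to 8 weeks. All 37 libraries were of the same unmodified strain, and the lysis buffer of all of them held cycloheximide. Lipopolysaccharide (LPS), a bacterial activator of Toll-like receptor 4, was given at 100 ng/mL for 0.5, 1, 2, 4, 6, 8, 9 or 12 h. Cycloheximide at 100 ug/mL for 1 min, which stalls elongating ribosomes, was used in 16 LPS, 8 mock-treated and 2 naive libraries, and no inhibitor in 8 LPS libraries and 1 naive library. Drugs that hold ribosomes at starts were given to 1 library of mixed LPS times each. Harringtonine was used at 1 ug/mL (5 min). For lactimidomycin the dose was 50 ug/mL and the exposure 30 min. The single list analysed here was made from all libraries together and has no value per library. LPS, mock and inhibitor groups were therefore not compared, the depth behind each ORF is unknown, and no value has a replicate. Each ORF carries a score given by the authors, a whole number from 500 to 991 whose formula is not given in the sources used here. Cultures from marrow can hold other cells: ORFs were listed for 9 of 10 dendritic cell marker names (Flt3 had none), 5 of 6 macrophage names (Adgre1 is the newer name of Emr1, which was listed), 6 of 6 neutrophil markers, 2 of 4 mast cell and basophil markers, 1 of 4 B cell markers and none of 4 T cell markers. From a pooled list, the part of each cell type in a proteasome ORF was not tested.

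Nearly every proteasome gene had an ORF. Of 48 genes of the core, cap, activators, inhibitor and chaperones, 45 (93.8%) were listed, beside 46.0% of the 21900 protein-coding symbols of the RefSeq naming table. The 3 without an ORF under their own name were the immunosubunit Psmb10, the thymic subunit Psmb11 and the chaperone Psmg1. The longest ORF of each family is called its main ORF. The main ORFs had a median of 264 codons, against 438 over all families, and a median score of 971 against 927. A main score of 900 or more was reached in 39 of 46 families, beside a background of 57.0%. Shares over families are given with exact 95% intervals where shown, which cover counting error only, and gene families are not replicates. The plot of scores by family shows a narrow band near the top of the scale, with a few families below it.

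**Figure D1:**
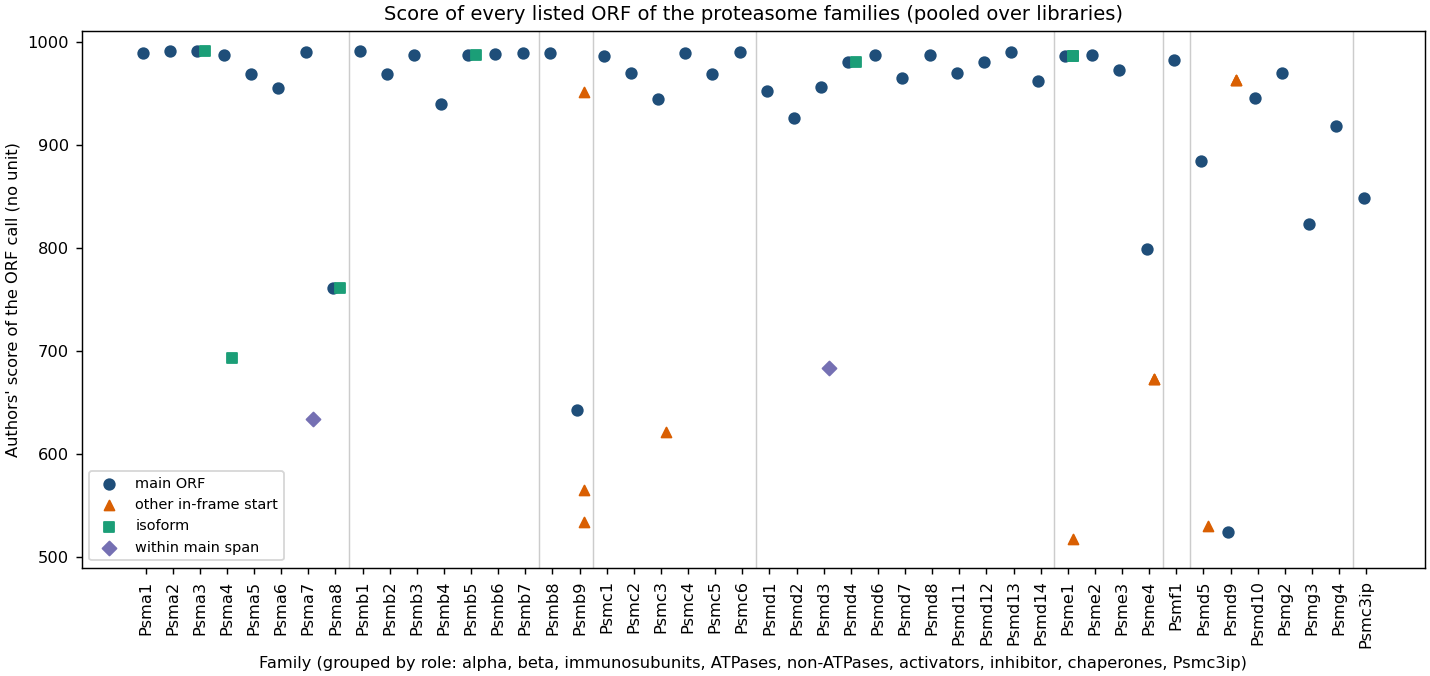
Each point is 1 listed ORF; the vertical axis is the authors' score without unit, the horizontal axis the 46 families grouped by role, and symbols give the class of the ORF, with forms of equal score drawn over each other. Of the main ORFs, 39 lie at 900 or above, and Psmd9 (525), Psmb9 (643) and Psma8 (761) lie lowest.

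Start codons could be read for a few members and are shown because the starts of Psmb9 carry its main result. RefSeq windows around gene starts (build GRCm38.p6) hold 50 transcribed bases, so a start codon is inside them only where the leader, the stretch from the transcript start to the start codon, is short and unspliced. Of 772 main ORFs of the list with such a leader and a single window, 474 (61.4%) read ATG at the listed distance. All 5 such members did. The sequences run 5′ to 3′ with the listed starts in capitals after 12 bases of the window. For Psmb5, whose listed leader has 4 bases, the first 8 of these lie before the listed transcript start.
Psmb9 (chr17:34187292-34187321, minus strand): cgctctgctgagATGCTGcgggcaggagca
Psmb5 (chr14:54617974-54618003, minus strand): cccttgctaaacATGgcgctggctagcgtg
Psmb6 (chr11:70525385-70525406, plus strand): tagcagaggaagATGgcggccg
Psmd5 (chr2:34870913-34870934, minus strand): ggagccagggagATGgcggcgc
Psmd10 (chrX:140956662-140956679, minus strand): tgggaaggcgaaATGgag
The Psmb9 line has capitals over 6 bases because adjacent codons were both listed as starts. The first is an ATG and the second a CTG. The other lines each hold a single listed start.

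The alpha ring, which forms the gated ends of the core, was listed in full, with 12 ORFs in 8 families and main scores of 761 to 991. Psma1, Psma2, Psma5 and Psma6 had a single ORF each, of 263, 234, 241 and 246 codons, with scores of 989, 991, 969 and 955. Their lengths lay within the range of 234 to 263 codons of the whole ring. Psma3 had ORFs of 255 and 233 codons from the same start, both scored 991. The shorter lacks a whole coding exon of 66 bases (mm9 chr12:72089411-72089476). The main ORF of Psma4, 261 codons, scored 987, and a truncated form of 136 codons from the same start scored 693. The truncated form leaves out 410 coding bases of the main ORF and ends in 35 bases of its own (chr9:54802777-54802811), which lie in no exon of the main transcript. It was the only one of 10 member pairs with a common start whose scores differed. Over all families, 3714 of 4790 such pairs (77.5%) had equal scores.

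Psma7 and Psma8 encode alternative forms of the same alpha position, and Psma8 is known as the testis form. The main ORF of Psma7, 248 codons, scored 990. Psma8 had ORFs of 250 and 210 codons, both scored 761, and its main score was the lowest of the alpha ring, below Psma6 at 955. The shorter Psma8 ORF skips a coding exon of 120 bases. How footprints that fit both paralogs were assigned is not given in the sources used here, so the Psma8 call is uncertain. Within the span of the Psma7 main ORF lay a 27-codon ORF that scored 634. That ORF starts 163 coding bases past the main start in another reading frame, and its listed transcript includes 639 bases of an intron (chr2:179776344-179776982).

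The 7 constitutive beta subunits had 8 ORFs and main scores of 939 to 991. Psmb1, Psmb2, Psmb3 and Psmb4, the noncatalytic ones, had 1 ORF each, of 240, 201, 205 and 264 codons with scores of 991, 969, 987 and 939. The catalytic subunits Psmb5 (chymotrypsin-like), Psmb6 (caspase-like) and Psmb7 (trypsin-like) had main ORFs of 264, 238 and 277 codons, which scored 987, 988 and 989. Thus the 3 cutting subunits lay within 2 score units of one another. Among main ORFs, Psmb5 had the shortest leader of all members, 4 bases before the ATG shown above. Its second ORF, of 177 codons with the same score, lacks 261 coding bases of the main ORF (chr14:55235352-55235612) in exon 2.

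The immunosubunits differed among themselves. Psmb8, the immune counterpart of Psmb5, had 1 ORF of 276 codons (chr17:34335344-34338211) that scored 989. Psmb9, the immune counterpart of Psmb6, had 4 ORFs with a common stop codon, as many as any member family. Its longest ORF, 219 codons from the ATG (chr17:34319169-34324254), had a score of 643. The ORF that starts 1 codon further in, at the CTG, had 218 codons and a score of 951. Those of 196 and 37 codons started 23 and 182 codons inside the main ORF and scored 565 and 534. The 196-codon ORF lies on a listed transcript that begins past the main start, and the 37-codon ORF on one that retains introns. By score, the CTG call stood far above the other starts. Over all families, an ORF starting exactly 1 codon inside the main ORF was listed in 82 of 10327 families, and 37 of 92 such ORFs (40.2%) scored above the main ORF. In the whole list, 12 other in-frame starts shared the transcript start of a main ORF with a readable ATG and were readable themselves: 5 read ATG, 4 GTG, 2 CTG and 1 TTG.

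Psmb10, the immune counterpart of Psmb7, had no family of its own name. In the RefSeq table its protein-coding neighbours are Ctrl, a pancreatic protease gene, and Lcat. The listed Ctrl family holds a 273-codon ORF (chr8:108459694-108461910, minus strand) that scored 957 and a 268-codon ORF that scored 626. The listed transcript has 952 bases before that start and 929 after the stop. Whether this ORF encodes Psmb10 was not tested, and it is not counted among the members.

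Psmb8 and Psmb9 lie in the MHC class II region beside Tap1 and Tap2, which encode the transporter that carries proteasome peptides into the endoplasmic reticulum. In mm9 the listed starts of Psmb9, on the minus strand, and Tap1, on the plus strand, are 225 bases apart, head to head. These are the starts of the main ORFs' transcripts. The listed transcript of the 37-codon Psmb9 ORF begins 863 bases further upstream (chr17:34324276-34325138) and overlaps the start of Tap1 at 34324501. Psmb8 begins 969 bases after the end of Tap1, and Tap2 begins 3024 bases after the end of Psmb8. Tap1 had a single ORF, of 724 codons, that scored 987, and the 702-codon main ORF of Tap2 scored 927. The map of the 4 genes shows this order.

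**Figure D2:**
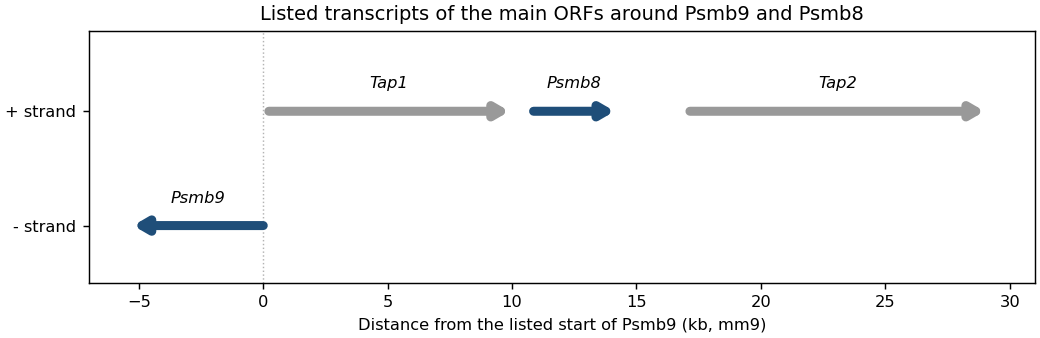
Arrows are the listed transcripts of the main ORFs, drawn to scale by strand; the horizontal axis is the distance in kb (mm9) from the listed start of Psmb9. Psmb9 and Tap1 point away from each other across 225 bases, and Psmb8 lies between Tap1 and Tap2.

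The RefSeq starts of this pair are also 225 bases apart, so the stretch between them could be read from the Psmb9 window. It is shown because a single stretch of DNA precedes the starts of both genes. It is given on the minus strand, toward Psmb9, with CCAAT boxes (CCAAT) and GC boxes (GGGCGG) found on either strand in capitals.
Psmb9 to Tap1 (GRCm38.p6 chr17:34187331-34187555): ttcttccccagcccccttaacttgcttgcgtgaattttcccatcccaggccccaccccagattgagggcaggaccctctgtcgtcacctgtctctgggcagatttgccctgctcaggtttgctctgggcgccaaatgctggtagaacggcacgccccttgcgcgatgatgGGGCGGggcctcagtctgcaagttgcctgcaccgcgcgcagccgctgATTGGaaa
It holds 1 GC box and 1 CCAAT box, both in the part nearer Psmb9, and 61.3% of its bases are G or C.

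The 6 ATPases of the 19S base, the motor that unfolds substrates, had main scores of 944 to 990 and 389 to 442 codons. Psmc1, Psmc2, Psmc4, Psmc5 and Psmc6 had 1 ORF each, with scores of 986, 970, 989, 969 and 990. Psmc3 had the lowest score of the ring, 944, for its 442-codon ORF, and was the only ATPase with a second ORF. That ORF starts 19 codons further in (chr2:90894462-90899521), has 423 codons and scored 622. Psmc3ip, outside the proteasome, had 1 ORF, of 217 codons, which scored 848, below all 6 ATPases.

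The 11 non-ATPase subunits of the cap had 13 ORFs, and all their main scores lay between 926 and 990. Psmd1 and Psmd2, the large scaffold subunits, had 953 and 908 codons with scores of 952 and 926. Psmd14, the deubiquitinase that removes ubiquitin chains before degradation, had 310 codons with a score of 962, and its inactive relative Psmd7 had 321 codons with 965. The lid subunits Psmd6, Psmd11, Psmd12 and Psmd13 had single ORFs with scores of 987, 970, 980 and 990. Psmd8, also of the lid, had 289 codons and scored 987. For the ubiquitin receptor Psmd4, forms of 379 and 376 codons began at 1 start and both scored 980. They differ by 9 bases of exon 7 (chr3:94837831-94837839). Psmd3, another lid subunit, had a main ORF of 530 codons that scored 956 and a 24-codon ORF that scored 684. The short ORF starts 319 coding bases into the main ORF in another frame, on the main transcript itself (chr11:98546907-98546981).

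The activators cap the core in place of the 19S particle. Psme1 and Psme2, the interferon-inducible pair that forms PA28, lie on chromosome 14 with 5912 bases between their listed transcripts. Psme2 had 1 ORF, of 239 codons, which scored 987. Psme1 had 3 ORFs from a common start, of 249, 246 and 236 codons, all scored 986, and the shorter forms lack 9 bases of exon 5 and 39 bases of exon 8. A further ORF, of 139 codons, started 110 codons inside and scored 518. Psme3, the nuclear activator, had 1 ORF, of 254 codons, which scored 972. Psme4, the large activator PA200, had the longest main ORF of all members, 1811 codons over 46 coding exons, with a score of 799. ORFs of 1806 and 1713 codons started 5 codons further in, both with a score of 673. The 1713-codon form also skips whole exons of 126 and 153 bases. The inhibitor Psmf1 had 1 ORF, of 271 codons, which scored 982.

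The main scores of the 6 assembly chaperones ran from 525 to 970, with a median of 901. The medians were 988 for the alpha ring and 970 for the non-ATPase subunits. Psmg2, Psmg3 and Psmg4, chaperones of the core, had 264, 122 and 123 codons with scores of 970, 823 and 918. Psmd10, known as gankyrin and a chaperone of the base, had 231 codons with 945. Psmd5, another base chaperone, had 504 codons with a score of 884 from the ATG shown above and 453 codons with 530 from a start 51 codons further in. Psmd9, also a chaperone of the base, had the lowest main score of all members, 525, for its 226-codon ORF. ORFs of 222 and 188 codons from a start 4 codons further in both scored 963, and the shorter of them skips an exon of 102 bases (chr5:123691841-123691942). The lowest main scores of Psmd9 and Psmb9 therefore belonged to starts that lay 4 and 1 codons before a start with 963 and 951. With the best ORF of each family, 41 of 46 families reached 900, beside a background of 65.5%, and 5 stayed under it: Psma8, Psme4, Psmg3, Psmd5 and Psmc3ip.

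In all, other in-frame starts with the main stop codon were listed in 6 of 46 families (13.0%, 95% exact interval 4.94 to 26.3), beside a background of 23.0%. They were Psmb9, Psmc3, Psmd5, Psmd9, Psme1 and Psme4, with 10 such ORFs. By main score, these families were 4 of the 7 members under 900, beside a background of 41.0% there, and 2 of the 39 at 900 or more, beside 9.47%. In 2 of the 46, Psmb9 and Psmd9, such a start scored above the main ORF, beside a background of 10.6%. The 10 ORFs started a median of 12 codons inside the main ORF, against 23 for 3126 of the 3385 such ORFs over all families. The starts of Psmd9 (4 codons inside) and Psme4 (5 codons inside) each entered this median as 2 splice forms. The plot of scores along these families shows both patterns.

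**Figure D3:**
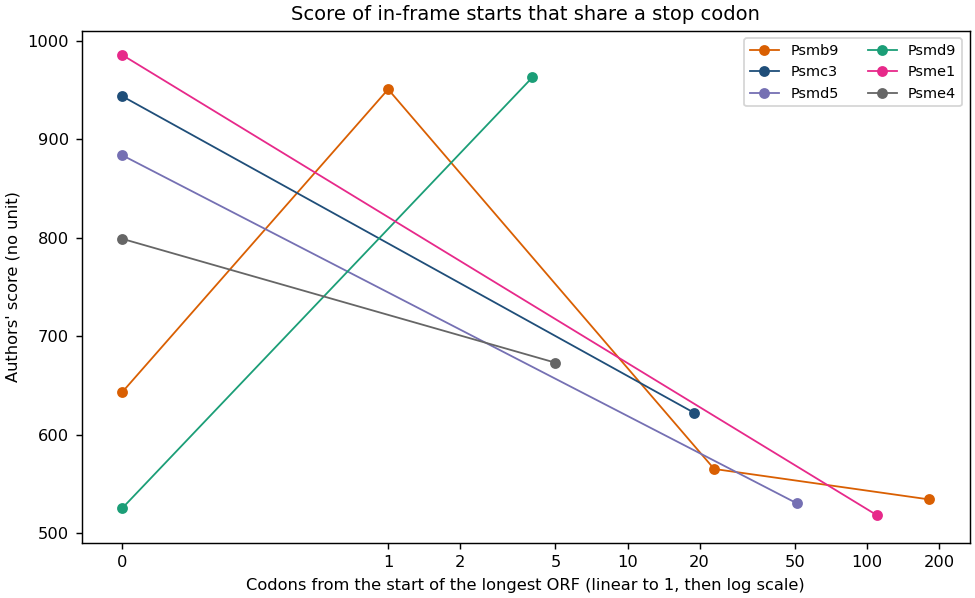
Each line is 1 family and each point 1 start (2 splice forms share the inner point of Psmd9 and of Psme4); the horizontal axis is the distance in codons from the start of the longest ORF (linear to 1, then logarithmic), the vertical axis the authors' score. The inner start had the lower score in Psmc3, Psmd5, Psme1 and Psme4, while Psmd9 and Psmb9 had their highest score 4 and 1 codons inside.

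No member family had an upstream ORF, meaning an ORF whose start precedes the main start and whose codons are not those of the main ORF. None had an ORF downstream of or over the main stop either, beside a background of 2.21%. The exact 95% interval on 0 of 46 reaches 7.71%, and the background is 20.2%. The leaders of the members were short. Their median was 108.5 bases against 186 over all families, and 21 of 46 were under 100 bases, beside a background of 27.7%. Among all families, the share with an upstream ORF was 4.20% with leaders under 100 bases, 13.4% with 100 to under 200 and 33.3% with 200 or more. Weighted to the members' 21, 14 and 11 families in these bands, it would come to 13.9%, or 6.41 of 46 families. The last band has no upper limit, and leaders reach 32369 bases over all families and 1555 in the members. Lengths within that band were therefore not matched. The 11 members with the longest leaders, among them Psma3 (497 bases), Psma4 (1555), Psmc2 (400) and Psma5 (351), had none either. These are leaders of the main ORF's listed transcript. Other listed transcripts with the same start had 407 bases in Psma3, 123 in Psma4, and 140 and 0 in Psme1. Among families with a main score of 900 or more, 16.0% had an upstream ORF over the whole list, and 0 of 39 members. With a main score under 900 it was 25.8%, and 0 of 7 members.

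Beside all families, the transcripts of the members were short at both ends. An intron in the leader was listed in 5 of 46 families, Psma3, Psmc1, Psmc2, Psmd14 and Psmg3, beside a background of 38.4%. An intron after the stop codon was listed in 4 (8.70%), close to the background of 10.3%. The median length after the stop codon was 287.5 bases, against 1115 over all families. It ran from 44 bases in Psme2 to 3147 in Psmd12. The median number of coding exons was 8 for members and 8 over all families, and the median number of codons per coding exon was 37.3 against 46.1. Splice isoforms were listed in 6 families, beside a background of 23.2%, and ORFs within the main span in 2, beside 8.67%. Forms with another start and the main stop codon were not counted as isoforms, which leaves out the exon-skipping forms of Psmd9 and Psme4. In total, 13 of 46 families (28.3%, interval 16.0 to 43.5) had more than 1 ORF, beside a background of 56.5%. Among families with a main score of 900 or more, the share was 8 of 39 (20.5%) beside 45.9%, and under 900 it was 5 of 7 beside 70.4%.

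**Figure D4:**
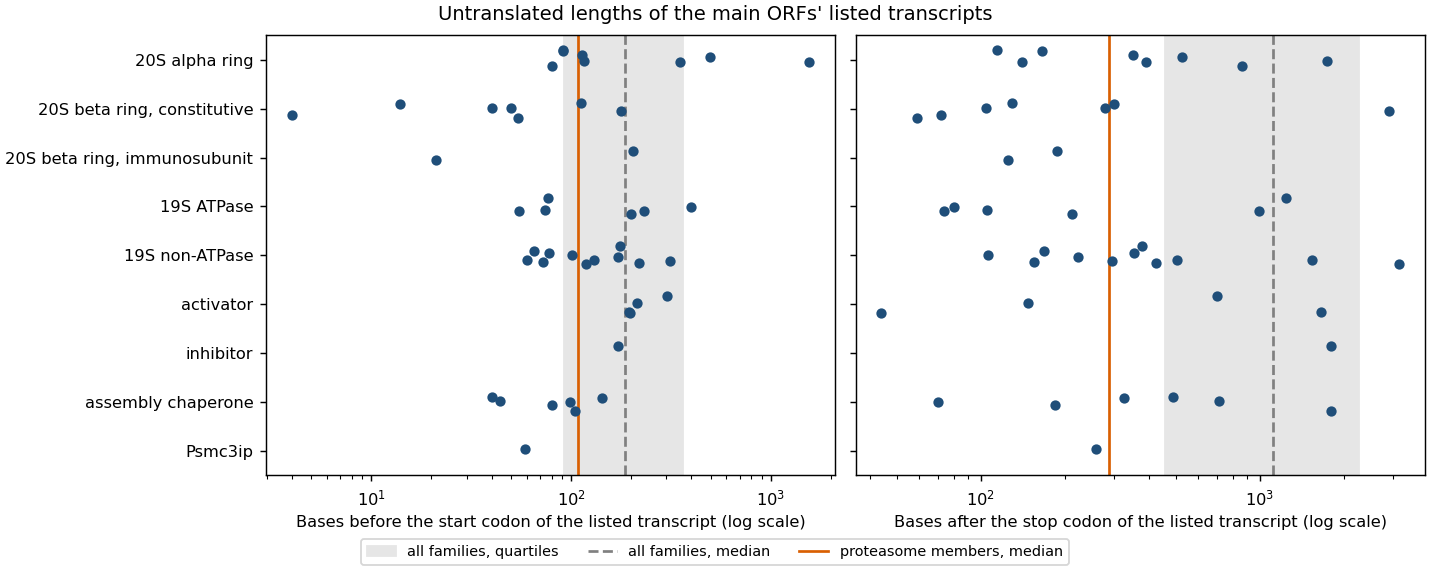
Each point is the listed transcript of 1 main ORF, by role; the horizontal axes (log scale) give the bases before the start codon (left) and after the stop codon (right), with the median and quartiles of all families. The members' medians, 108.5 and 287.5 bases, lie left of those of all families, 186 and 1115; vertical offsets within a role only separate points.

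A shared position was a further feature that the name rule did not use. The listed start of 10 of 46 member families (21.7%, interval 10.9 to 36.4) lay head to head with that of another family within 1000 bases, beside a background of 9.99%. Within 300 bases there were 8, beside 7.32%. The closest pair was Psma7 with Ss18l1, a chromatin remodelling subunit, 18 bases apart. The others within 300 bases were Psmc2 with Dnajc2 (39 bases), Psmc5 with Ftsj3 (81), Psma2 with Mrpl32 (121), Psmb1 with the TATA-binding protein Tbp (160), Psmd10 with the autophagy protease Atg4a (205), Psmb9 with Tap1 and Psmg2 with Cep76 (262). Psmd13 faced the mitochondrial deacetylase Sirt3 at 524 bases, and Psme2 faced a family listed under the name Irf9 at 627. The main ORF of that family has 1066 codons over 21 coding exons, and whether it encodes Irf9 was not tested. RefSeq starts could be set beside the listed ones for 5 of the pairs. The distance was the same for Psma7 with Ss18l1 and Psmb9 with Tap1. It was 100 bases for Psmc5 with Ftsj3 and 204 for Psma2 with Mrpl32. For Psmd10 with Atg4a it came to -2867 bases, so the RefSeq starts of that pair lie past each other and leave no head-to-head gap. The 18 bases between Psma7 and Ss18l1 are shown as the shortest listed stretch.
Psma7 to Ss18l1 (GRCm38.p6 chr2:180042465-180042482, minus strand): gcacgtccccctgacgcc
It holds neither a CCAAT box nor a GC box.

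RefSeq windows of 300 bases, from 250 before to 50 after a gene's start, were found for 38 of 46 member families. Motif letters were searched on both strands, and a match is only a match of letters. The antioxidant response element (TGACNNNGC), the site type used by the proteasome regulator Nfe2l1, was found in 6 members (15.8%), Psmb5, Psmb6, Psmc6, Psmd12, Psmd9 and Psme4, against 17.4% of listed families and 14.0% of all genes with a window. The core of the interferon-stimulated response element (GAAA, any 2 bases, GAAA) was found in 5 (13.2%), Psmb3, Psmd4, Psmd9, Psme1 and Psmg4, against 3.89% of listed families and 3.99% of all. The gamma-interferon activated site (TTCNNNGAA) was found in Psmb8 and Psmd2 (5.26%), against 8.37% and 9.55%. GC boxes were found in 23 of 38 (60.5%), against 70.1% of listed families and 38.2% of all genes with a window. CCAAT boxes were found in 14 (36.8%), against 43.0% and 41.1%. A single 10-letter form of the NF-kB site was found in 0 members, 0.258% of listed families and 0.174% of all.

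Genes that work with the proteasome under other names were taken from a separate list. Of its 30 names, some of them alternative names of 1 gene, 25 had a family. The core chaperone Pomp (141 codons, score 991), the ubiquitin receptor Adrm1 (407 codons, 988) and the small cap subunit Shfm1 (70 codons, 964) had a single ORF each, like most members. Of the 25, 17 had more than 1 ORF (background 56.5%), 11 another in-frame start (background 23.0%) and 3 an upstream ORF (background 20.2%). Among them were Nfe2l1, the transcription factor that raises proteasome genes when the proteasome is blocked, and the stress-induced adaptor Zfand2a. In Nfe2l1, upstream ORFs of 25 and 9 codons scored 917 and 968, and the 741-codon main ORF scored 962. In Zfand2a, upstream ORFs of 27 and 11 codons scored 977 and 617. The longest ORF of Ddi2, the protease that activates Nfe2l1, had 398 codons and scored 643, while a form 3 codons shorter scored 912.

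Other multi-subunit complexes were set beside the members without a test. Upstream ORFs were listed in 0 of 12 families of the initiation factor eIF3, 0 of 8 of the chaperonin CCT and 1 of 9 of the COP9 signalosome, a complex related to the 19S lid, where the gene was Cops7b. The intervals on these small sets reach 26.5%, 36.9% and 48.2%. More than 1 ORF was listed in 2 of 12, 2 of 8 and 4 of 9 families. Head-to-head neighbours within 1000 bases were listed in 0 of 12, 4 of 8 and 4 of 9. High main scores, near-complete listing and short transcript ends were not particular to the members. Median main scores were 970.5 in eIF3, 983 in CCT and 945 in the COP9 signalosome, beside 971 in the members. ORFs were listed for 12 of 13, 8 of 9 and 9 of 9 gene names of these complexes, beside 45 of 48 proteasome genes. Median leaders were 55.5 bases in eIF3, 100 in CCT and 168 in the COP9 signalosome, beside 108.5 in the members. The medians after the stop codon were 160, 233.5 and 379 bases, beside 287.5.

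**Figure D5:**
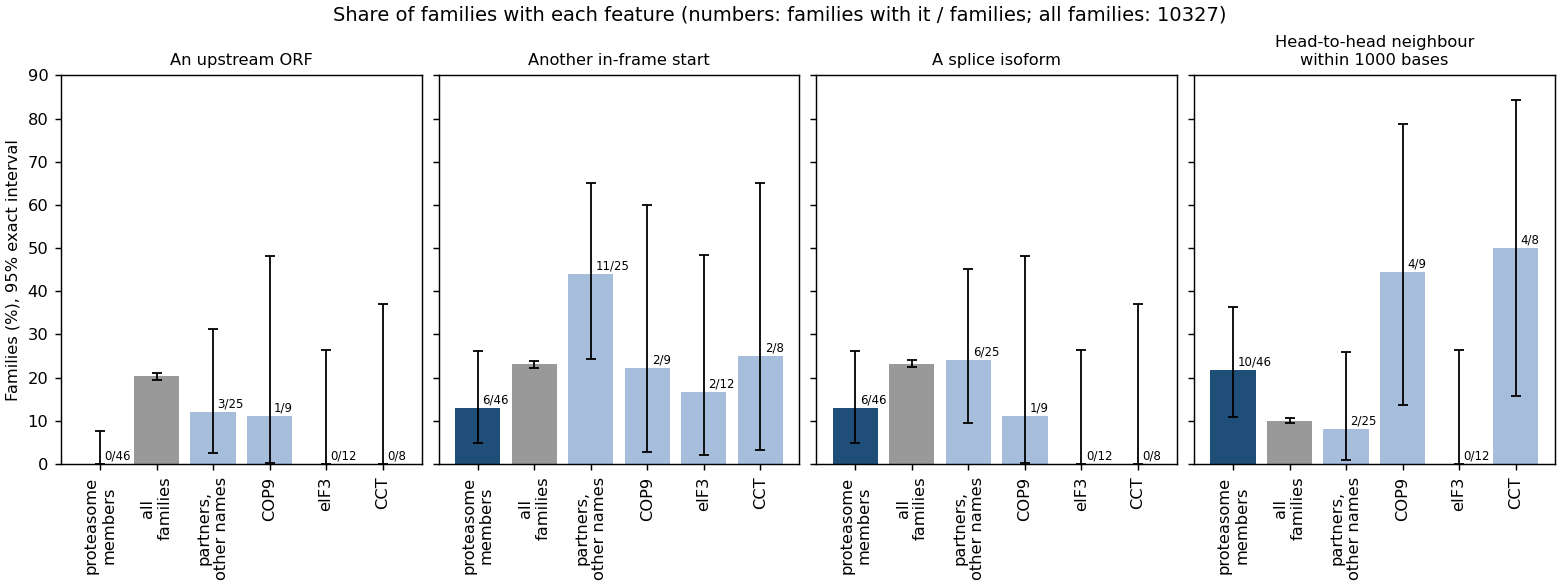
Bars give the percent of families with each feature in the members, all families and 4 comparison lists, with exact 95% intervals, which cover counting error only. Members had no upstream ORF (0 of 46 against 20.2% of all families), and 10 of 46 had a head-to-head neighbour against 9.99%.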

How the data were processed

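Ribosome footprints of 37 libraries of mouse dendritic cells were the source of a single list of ORFs. The score of each ORF is a whole number that the authors deposited with the list, 1 value for all libraries together. Per the submitters' processing notes, Bowtie2, TopHat and the mm9 build were used. For their roles, the ORF caller, the transcript models, the score formula and the depth, nothing was given in the sources used here. Removal of ribosomal RNA differed between libraries, by subtractive hybridization or RiboZero, per the labels' protocols.

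ORFs were parsed from names and block coordinates, grouped into families and classed against the longest ORF of the family. The classing was tested on simulated families. Medians, shares and exact (Clopper-Pearson) 95% intervals were computed with numpy 2.4.6 and scipy 1.17.1. No test was run, since the list holds 1 value per ORF for all samples. Members and gene lists were chosen with earlier results of these data known. Any member family could be named, and all 46 were. The rule for description in full took those with more than 1 ORF, the immunosubunits and their counterparts, the 3 highest and 3 lowest main scores, and listed proteasome genes without an ORF. Names, neighbours and sequences came from RefSeq (GRCm38.p6), and list coordinates are 1-based mm9. Comparison with RefSeq protein lengths and protein identities was planned and not run, as no protein table was used here. Alternatives were score and length minimums, 1 ORF per stop codon, another main ORF, another family rule and leaving out Psmc3ip. The values of 1 gene of the list of proteasome partners are not reported here.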

Additional observations from a re-analysis of the deposited data

How the results depend on the processing

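The share of members with an upstream ORF was 0 under each of the 7 alternatives run. It had little room to change, since none of the 65 member ORFs was upstream and most alternatives only remove or regroup ORFs. The median main score stayed between 971 and 980, and a score minimum cannot lower it. The share of members with more than 1 ORF, 28.3%, became 12.2% with scores of 900 or more, 11.6% with scores at or above the list's median of 847, and 6.52% with 1 ORF per stop codon. The share with another in-frame start, 13.0%, became 0% under these same settings. With 1 ORF per stop codon, it is 0 by construction. Over all families, the share with another in-frame start became 0.429% and 1.21% with the score minimums, and the share with an upstream ORF 5.77% and 7.98%. With ORFs of 30 codons or more, the upstream share over all families was 8.79%. The 300-base distance for head-to-head starts was chosen after seeing the data. Comparison with protein lengths was not run. No paired analysis was possible because the list has 1 value per ORF for all libraries together. The unknown depth and score formula limit what a missing ORF shows: it was not listed, which is not evidence that it is not translated.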
